A study of Danio rerio with 14 samples.

Results

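Chromatin accessibility at 10 genes of cardiac energy metabolism was followed by ATAC-seq, which counts the cuts a transposase makes in open DNA, in adult zebrafish cardiomyocytes. All peaks that the authors assigned by gene name to one of the 10 genes were taken, whatever their values. The genes themselves were chosen with earlier results of these data known. The 5 genes grouped as oxidative are ppargc1a, esrrga, ckma, ogdha and hadhaa, and the 5 grouped as glycolytic are hk2, pgam2, aldoaa, ldha and ldhba. They have 21 peaks in 2 tables: 15 of the 16610 peaks of a table shared by 4 groups (6 oxidative, 9 glycolytic), and 6 of the 6339 peaks of a table of A-Fos samples (2 oxidative, 4 glycolytic). All 21 passed the filter on low values (a mean of at least 10). Of the shared table, the aldoaa peak 94 bp upstream passed only through the control group. The hk2 peak there passed only through the other 3 groups.

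An adult heart makes most of its ATP by burning fatty acids and other fuels in mitochondria. Zebrafish cardiomyocytes that re-enter the cell cycle after injury are known to shift towards glycolysis. The coactivator encoded by ppargc1a works with oestrogen-related receptors, such as the product of esrrga, to turn on mitochondrial genes. Glycolytic enzymes break glucose down to pyruvate in the cytosol, and lactate dehydrogenases convert pyruvate to lactate and back.

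The series addresses AP-1, the transcription factor made of Fos and Jun proteins, in heart regeneration. The shared table holds 2 libraries each of 4 groups. Uninjured Tg(myl7:nucDsRed)+ cells, marked by a reporter under a promoter of all cardiomyocytes, are the control group and are called myl7:nucDsRed+. Cells carrying Tg(gata4:EGFP), collected 4 days after cryoinjury, are called gata4:EGFP+. Both were isolated by fluorescence-activated sorting, with 5000 cells per reaction. Uninjured cardiomyocytes that overexpressed junba or junbb (junba OE and junbb OE) were taken 7 days after induction. They were isolated on a density gradient, and each reaction held 50000 cells. The A-Fos table holds 3 libraries of A-Fos(+) and 3 of A-Fos(-) cardiomyocytes from the wound border, 4 days after cryoinjury, isolated on the same kind of gradient, with 5000 cells a reaction. A-Fos, a dominant-negative protein that keeps Jun partners off DNA, was induced with injected 4-hydroxytamoxifen (0.5 mg/mL), and A-Fos(-) fish received ethanol vehicle. Cryoinjured fish were 4 to 12 months old, and each library pools ventricles of 6 hearts. The labels give no vehicle treatment for the myl7:nucDsRed+ fish. They do not say that replicates came from separate cultures or days, so p-values reflect spread between libraries only.

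Injury cannot be told apart from the sorted population in the gata4:EGFP+ comparison, and overexpression cannot be told apart from the isolation method, cell number or induction treatment in the junba and junbb comparisons. In direct tests of gata4:EGFP+ against junba OE or junbb OE, injury, overexpression, induction treatment, sorted population, isolation method and cell number differ together. Their parts cannot be told apart there. All 3 comparisons with the control use the same 2 myl7:nucDsRed+ libraries, so a high or low control value moves them together. Estimated nuclear reads in peaks ran from 129391 to 1451740 per library. The mitochondrial genome held 72 to 73.4% of the summed values in gata4:EGFP+ libraries, 83.4 to 86.7% in myl7:nucDsRed+, 87.7 to 87.9% in junba OE and 82.8 to 85.6% in junbb OE. Listed markers of cardiomyocytes had peaks at 16 of 18 genes (not tbx5a or vmhc), and their summed level was 1635 to 1906 normalized counts in myl7:nucDsRed+ libraries, 816 to 822 in gata4:EGFP+, 532 to 723 in junba OE and 454 to 483 in junbb OE. Endothelial and endocardial markers, with peaks at 11 of 17 genes, summed to 125 to 135, 256 to 265, 460 to 526 and 711 to 764 in the same order. Epicardial and fibroblast markers (peaks at 6 of 14 genes) summed to 56 to 64, 171 to 178, 57 to 64 and 105 to 115, with col6a1 higher by 2.70 ± 0.47 in gata4:EGFP+ (adjusted p = 0.000722). Leukocyte markers (4 of 11 genes) summed to 35 to 47, 90 to 91, 46 to 76 and 40 to 45, with irf8 higher by 1.98 ± 0.40 in gata4:EGFP+ (0.00212). That 1 irf8 peak, 4477 bp from its start, had means of 66.0 in gata4:EGFP+ and 13.0 in the control and made up most of the gata4:EGFP+ sum. The other tested leukocyte peak, at cxcr4b, was not called (−0.17, adjusted p = 0.807). Erythroid and thrombocyte markers (3 of 9 genes) summed to 149 to 160, 81 to 88, 24 to 41 and 46 to 55. The part of these markers in the results below was not tested, and col6a1 and irf8 were picked after their values were seen. No marker peak was at 0 in all libraries of a group. Skeletal muscle markers had a peak at 0 of 8 genes. In the A-Fos table cardiomyocyte markers had a peak at 1 of 18 genes, and leukocyte markers at 4 of 11.

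Levels are the authors' normalized counts, which can be compared between libraries of a table, and per kb of peak between peaks. Changes are log2 differences of value + 5, which understate the change of low peaks, given as estimate ± SE. Two-sided p-values from limma were adjusted by the Benjamini-Hochberg method over all tested peaks. Each SE pools the libraries of all groups in a table and is drawn towards a trend over all tested peaks. It is not the spread of the compared libraries alone. A peak is called where the adjusted p is under 0.05. Groups of 2 libraries often do not overlap. Of all tested peaks, 29% lay wholly higher and 32.2% wholly lower in gata4:EGFP+ than in the control. The shares were 26% and 32.4% in junba OE and 30.4% and 33.1% in junbb OE. For gata4:EGFP+ they were 35.8% and 30.1% against junba OE, and 37.3% and 34.3% against junbb OE. For junba OE against junbb OE they were 15.1% and 19.3%. In these bulk samples, fewer cells with an open site and a less open site in each cell cannot be told apart.

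Most of the 15 peaks were less accessible in each of the other 3 groups than in the uninjured control, at the regulators ppargc1a and esrrga and at the muscle enzyme genes ckma and pgam2 among them. Accessibility of gata4:EGFP+ cells was lower at 9 peaks and higher at 1, at hk2. In junba OE 8 peaks were lower and 2 higher, and in junbb OE 9 were lower and 2 higher. The higher ones were hk2 and, with either overexpressed factor, hadhaa. The hk2 peak passed the filter on low values only through the 3 groups where it is high. Over all 14776 peaks tested, 18.9% were called in the gata4:EGFP+ comparison (12.3% higher, 6.61% lower), 26.1% in junba OE (10.3% higher, 15.9% lower) and 28.8% in junbb OE (12.6% higher, 16.3% lower). One of the lower peaks in each comparison, aldoaa at 94 bp, passed the filter on low values only through the control. Without it, lower calls made up 8, 7 and 8 of 14 peaks, by description above each background. The 1 or 2 higher calls include hk2, for which a difference was built into the selection, so they are not set against the background. Because the 10 genes were chosen with earlier results of these data known, these counts are no test of an excess. Among the other 6 peaks centred within 500 bp of a start site, 3 were lower in each comparison, against 7.78%, 5.52% and 5.52% of all tested peaks that close to a start.

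**Figure D1:**
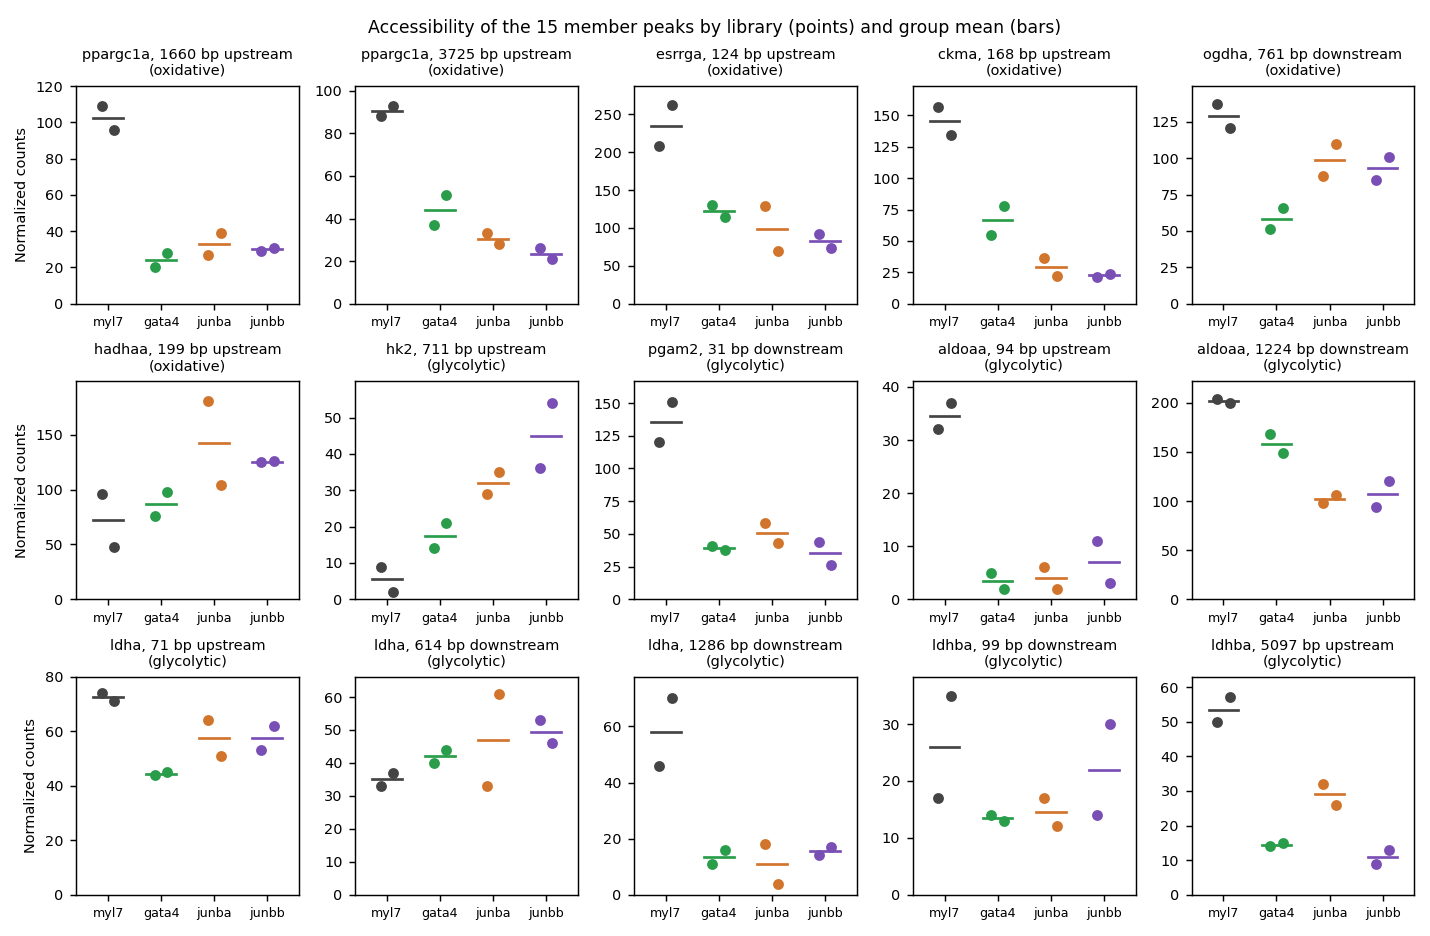
Normalized counts (vertical axis, from 0) at each of the 15 peaks in the 4 groups of the shared table (horizontal axis: myl7:nucDsRed+, gata4:EGFP+, junba OE, junbb OE), with points for the 2 libraries of a group and a bar for their mean. The control group has the highest mean at 12 of 15 peaks and the lowest at hk2, hadhaa and the ldha peak 614 bp downstream.

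Among the oxidative regulators, the transcriptional coactivator gene ppargc1a (ENSDARG00000067829, minus strand) has peaks 1660 and 3725 bp upstream of its start site. Positions are those deposited, on build danRer11 (GRCz11), and distances run from a peak's centre. At the nearer peak (chr7:70667485-70667764) the normalized counts were 109 and 96 in myl7:nucDsRed+, 20 and 28 in gata4:EGFP+, 27 and 39 in junba OE and 29 and 31 in junbb OE. Both control libraries lay far above the other 6, which were close together. The log2 change was −1.90 ± 0.33 in gata4:EGFP+ (adjusted p = 0.000626), −1.52 ± 0.33 in junba OE (0.00216) and −1.62 ± 0.33 in junbb OE (0.000876). This call held in all 3 comparisons under every alternative setting and with any library left out.

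At the farther ppargc1a peak (chr7:70669507-70669873) the control libraries held 88 and 93 normalized counts, gata4:EGFP+ 37 and 51, junba OE 33 and 28 and junbb OE 26 and 21. Again the control stood clear of all other libraries, and gata4:EGFP+ was the next highest. The changes were −0.98 ± 0.32 (adjusted p = 0.0352), −1.43 ± 0.32 (0.00272) and −1.75 ± 0.32 (0.000379). The gata4:EGFP+ call was lost whichever library was left out (adjusted p 0.106 to 0.292) and under equal totals (0.156), centring on peaks near start sites (0.0981) and log2(value + 1) (0.0556). The balance between the peaks also differed: the nearer one made up 53.1 ± 3.21% of the gene's summed counts in the control but 35.3 ± 0.251% in gata4:EGFP+ (mean ± SD, n = 2), with 51.6 ± 9.34% in junba OE and 56.2 ± 4.87% in junbb OE. That difference in share was not tested.

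The receptor gene esrrga (ENSDARG00000004861) codes for an oestrogen-related receptor that acts without a known hormone and drives mitochondrial genes. Its peak 124 bp upstream (chr17:29902098-29902523) held 208 and 262 normalized counts in the control, 130 and 115 in gata4:EGFP+, 129 and 69 in junba OE and 92 and 74 in junbb OE. No library of the other groups reached the lower control. Per kb of peak it was the most accessible of the 15, at 317 normalized counts over all 8 libraries, the 98.4th percentile of tested peaks. The changes were −0.91 ± 0.26 in gata4:EGFP+ (adjusted p = 0.019), −1.26 ± 0.26 in junba OE (0.00163) and −1.45 ± 0.26 in junbb OE (0.000349). The first of these was lost with gata4:EGFP+ replicate 1 (0.1), gata4:EGFP+ replicate 2 (0.17) or myl7:nucDsRed+ replicate 2 (0.17) left out, and under 3 other scalings, equal totals (0.169), centring (0.0688) and quantile normalization (0.0824).

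The muscle creatine kinase gene ckma (ENSDARG00000035327), whose enzyme buffers ATP in the sarcomere, had a peak 168 bp upstream (chr5:36837812-36838215). Control libraries held 157 and 134 normalized counts there, gata4:EGFP+ 55 and 78, junba OE 36 and 22 and junbb OE 21 and 24. The groups fell in 3 steps without overlap, control, then gata4:EGFP+, then both overexpressing groups together. The changes against the control were −1.09 ± 0.31 (adjusted p = 0.019), −2.17 ± 0.31 (7.49e-05) and −2.45 ± 0.31 (1.82e-05). Tested directly, gata4:EGFP+ exceeded junba OE by 1.08 ± 0.31 (0.0114) and junbb OE by 1.36 ± 0.31 (0.00244). The former was lost without gata4:EGFP+ replicate 2 (0.161) or junba OE replicate 2 (0.086), and the latter without gata4:EGFP+ replicate 2 (0.0668). The gata4:EGFP+ against control call was lost whichever library was left out (0.0669 to 0.234), with equal totals (0.106) and with centring (0.0509), while both overexpression calls held under every setting. The summed level of the cardiomyocyte markers, lowest in junbb OE, fell in the same order as ckma, and its part in the result was not tested.

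Of the oxidative enzymes, ogdha (ENSDARG00000034270), which encodes a subunit of the 2-oxoglutarate dehydrogenase of the citric acid cycle, has a peak 761 bp downstream of its start (chr8:45837526-45837913). It held 137 and 121 normalized counts in the control, 51 and 66 in gata4:EGFP+, 88 and 110 in junba OE and 85 and 101 in junbb OE. Here gata4:EGFP+ was lowest, below the range of all other libraries. Its log2 change against the control was −1.08 ± 0.25 (adjusted p = 0.00459), lost only without gata4:EGFP+ replicate 1 (0.0992). The values for junba OE and junbb OE were −0.37 ± 0.25 (0.285) and −0.45 ± 0.25 (0.182). Set directly against junba OE, gata4:EGFP+ was lower by −0.71 ± 0.25 (0.032), a call lost without either gata4:EGFP+ library or junba OE replicate 2 (0.0652 to 0.25), in the 3 other scalings (0.0644 to 0.251) and with only the 2 groups fitted (0.0592). Against junbb OE the value was −0.63 ± 0.25 (0.0526).

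The gene hadhaa (ENSDARG00000057128) codes for the alpha subunit of the mitochondrial trifunctional protein of fatty acid oxidation. Its peak 199 bp upstream (chr20:47952448-47953248) held 96 and 48 normalized counts in the control, 76 and 98 in gata4:EGFP+, 181 and 104 in junba OE and 125 and 126 in junbb OE. It was the oxidative peak that did not follow the others: the control libraries differed by much of the range, gata4:EGFP+ overlapped them, and both overexpressing groups lay above them. The changes were 0.32 ± 0.30 (adjusted p = 0.486), 0.96 ± 0.30 (0.0199) and 0.83 ± 0.30 (0.0369). Without myl7:nucDsRed+ replicate 2, the low control, neither increase was called (0.321 and 0.467). Leaving out junba OE replicate 1 (0.19) or either junbb OE library (0.129 and 0.157) ended its own call as well, and so did centring (0.0841) and log2(value + 1) (0.0554) for junbb OE.

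**Figure D2:**
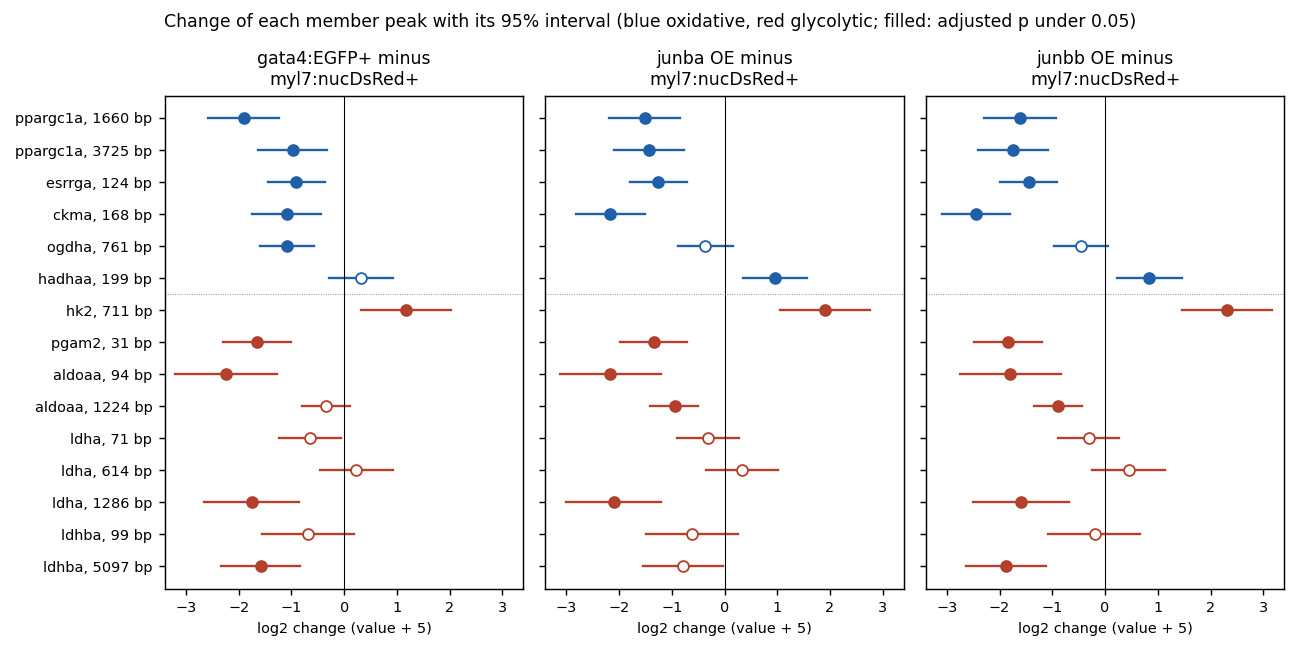
Log2 change (horizontal axis, log2 of value + 5) of each of the 15 peaks in gata4:EGFP+, junba OE and junbb OE against myl7:nucDsRed+, with 95% intervals as lines, oxidative genes in blue above the dotted line, glycolytic genes in red below it, and called peaks filled. Of the glycolytic peaks hk2 alone was called higher, by 1.17, 1.90 and 2.31. Called lower in all 3 comparisons were pgam2, aldoaa at 94 bp and ldha at 1286 bp. The hk2 peak passed the filter only through the groups where it is high, and aldoaa at 94 bp only through the control.

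The glycolytic genes did not move as a block. Hexokinase 2, encoded by hk2 (ENSDARG00000101482), phosphorylates glucose at the entry of the pathway. The hk2 peak (chr5:13868800-13870457, 1657 bp wide, centred 711 bp upstream) held 9 and 2 normalized counts in the control, 14 and 21 in gata4:EGFP+, 29 and 35 in junba OE and 36 and 54 in junbb OE. The order of the groups was strict, with no overlap between any of them. Non-overlap of 2 groups is common among all tested peaks, and the share with such a strict order was not counted. Per kb of this wide peak the level was low, 15.1 normalized counts, the 0.237th percentile of tested peaks. The control values stand for about 7.95 and 2.23 estimated reads. With a control mean of 5.5, the peak passed the filter only through the 3 groups where it is high. A difference from the control was thus built into its selection.

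The log2 change of hk2 was 1.17 ± 0.41 in gata4:EGFP+ (adjusted p = 0.0497), 1.90 ± 0.41 in junba OE (0.00225) and 2.31 ± 0.41 in junbb OE (0.000309). Both overexpression calls held with any library left out and under every other setting in which the peak was tested. With a minimum mean of 30 it was not tested. The gata4:EGFP+ call did not hold without gata4:EGFP+ replicate 1 (0.139), gata4:EGFP+ replicate 2 (0.333) or myl7:nucDsRed+ replicate 2 (0.379), nor with quantile normalization (0.125), log2(value + 1) (0.0517), log2(value + 20) (0.0991) or the replicate number as a block (0.0556). Tested directly, gata4:EGFP+ was below junbb OE by −1.15 ± 0.41 (0.0344), lost whichever library of either group was left out (0.0557 to 0.257), with centring (0.136) and with log2(value + 1) (0.0809), and the value against junba OE was −0.73 (0.176). The summed level of endothelial and endocardial markers rose over the groups in the same order as hk2, and its part in the result was not tested. From the control to gata4:EGFP+, 3 of 12 tested peaks of these markers were called higher, at nfatc1, klf2a and sox18. The others were not called.

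The muscle phosphoglycerate mutase gene pgam2 (ENSDARG00000057571) acts late in the pathway. Its peak 31 bp downstream of the start (chr21:19006395-19006825) held 120 and 151 normalized counts in the control, 41 and 38 in gata4:EGFP+, 58 and 43 in junba OE and 44 and 26 in junbb OE. Control libraries stood above all others by a wide gap, and the other 3 groups lay close together. The changes were −1.65 ± 0.31 (adjusted p = 0.00111), −1.34 ± 0.31 (0.00326) and −1.84 ± 0.31 (0.000191). With ppargc1a at 1660 bp, pgam2 was one of the 2 peaks whose gata4:EGFP+ call held with every library left out and in every other setting. The junba OE call was lost only without myl7:nucDsRed+ replicate 2 (0.0512).

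Aldolase A, encoded in part by aldoaa (ENSDARG00000011665), splits fructose-1,6-bisphosphate into triose phosphates. A small peak 94 bp upstream (chr3:39566826-39566983) held 32 and 37 normalized counts in the control, 5 and 2 in gata4:EGFP+, 6 and 2 in junba OE and 11 and 3 in junbb OE. It was nearly closed outside the control, at counts near those of a few reads. Its mean reached 10 in the control group alone, so it passed the filter only through the group where it is high, and a difference was built into its selection. The changes were −2.24 ± 0.46 (adjusted p = 0.00235), −2.17 ± 0.46 (0.00204) and −1.80 ± 0.46 (0.00556). Without gata4:EGFP+ replicate 2 the first was at 0.0692, and without junbb OE replicate 2 the third at 0.127. With either control library left out, the peak's mean fell under the filter, so it was not tested there.

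The larger aldoaa peak 1224 bp downstream (chr3:39567931-39568514) held 204 and 200 normalized counts in the control, 168 and 149 in gata4:EGFP+, 98 and 106 in junba OE and 94 and 120 in junbb OE. Here gata4:EGFP+ was intermediate, apart from the control and from both overexpressing groups. Its change was −0.34 ± 0.22 (adjusted p = 0.292), whereas junba OE gave −0.95 ± 0.22 (0.00336) and junbb OE −0.90 ± 0.22 (0.0039), the latter lost without junbb OE replicate 1 (0.0514) and with equal totals (0.0803). The direct difference of gata4:EGFP+ from junba OE was 0.61 ± 0.22 (0.0362), lost whichever library was left out (0.0597 to 0.223), and that from junbb OE was 0.55 (0.0531). The upstream peak made up 14.6 ± 1.45% of the gene's counts in the control and 2.11 ± 1.11% in gata4:EGFP+ (mean ± SD, n = 2). It made up 3.81 ± 2.77% in junba OE and 6.46 ± 5.68% in junbb OE. As that peak passed the filter only through the control, a difference in share was built in, and it was not tested.

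Lactate dehydrogenase A, from ldha (ENSDARG00000101251), has 3 peaks, and they differed. At the promoter peak 71 bp upstream (chr25:25123180-25123447) the counts were 74 and 71 in the control, 44 and 45 in gata4:EGFP+, 64 and 51 in junba OE and 53 and 62 in junbb OE. The control lay above every other library, and gata4:EGFP+ below every one. The changes of −0.65 ± 0.28 (adjusted p = 0.116), −0.32 ± 0.28 (0.438) and −0.31 ± 0.28 (0.441) were not called.

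The middle ldha peak, 614 bp downstream (chr25:25123760-25124237), held 33 and 37 normalized counts in the control, 40 and 44 in gata4:EGFP+, 33 and 61 in junba OE and 53 and 46 in junbb OE. Its groups lay close together, with the lowest mean in the control and 1 junba OE library as low, and no comparison was called (adjusted p 0.337 to 0.669). The third peak, 1286 bp downstream (chr25:25124530-25124812), held 46 and 70 in the control, 11 and 16 in gata4:EGFP+, 18 and 4 in junba OE and 14 and 17 in junbb OE. It was called lower in all 3 comparisons, by −1.75 ± 0.44 (0.0076), −2.10 ± 0.44 (0.00164) and −1.60 ± 0.44 (0.00832), with no overlap between the control and the rest. The gata4:EGFP+ call was lost without gata4:EGFP+ replicate 1 (0.117), gata4:EGFP+ replicate 2 (0.0591) or myl7:nucDsRed+ replicate 2 (0.103), and the junbb OE call without myl7:nucDsRed+ replicate 2 (0.109) or junbb OE replicate 1 (0.0661). As a share of the gene's counts this peak held 34.7 ± 6.55% in the control and 13.4 ± 2.59%, 9.55 ± 8.63% and 12.6 ± 1.37% in the other groups (mean ± SD, n = 2), a difference that was not tested.

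The heart-type lactate dehydrogenase gene ldhba (ENSDARG00000019644), whose mammalian counterpart is known for the lactate-using isoenzyme, has a peak 99 bp downstream of its start (chr4:16835804-16836009). It held 17 and 35 normalized counts in the control, 14 and 13 in gata4:EGFP+, 17 and 12 in junba OE and 14 and 30 in junbb OE. The libraries of the control and of junbb OE spread widely, and no comparison was called (adjusted p 0.276 to 0.759). At a distal peak 5097 bp upstream (chr4:16840955-16841250) the counts were 50 and 57 in the control, 14 and 15 in gata4:EGFP+, 32 and 26 in junba OE and 9 and 13 in junbb OE. Control was highest, junba OE intermediate, and gata4:EGFP+ and junbb OE lowest, with no library of one step reaching the next. The changes were −1.58 ± 0.37 (0.00465), −0.79 ± 0.37 (0.116) and −1.88 ± 0.37 (0.000642). Leaving out either gata4:EGFP+ library ended the first call (0.071 and 0.0601).

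**Figure D3:**
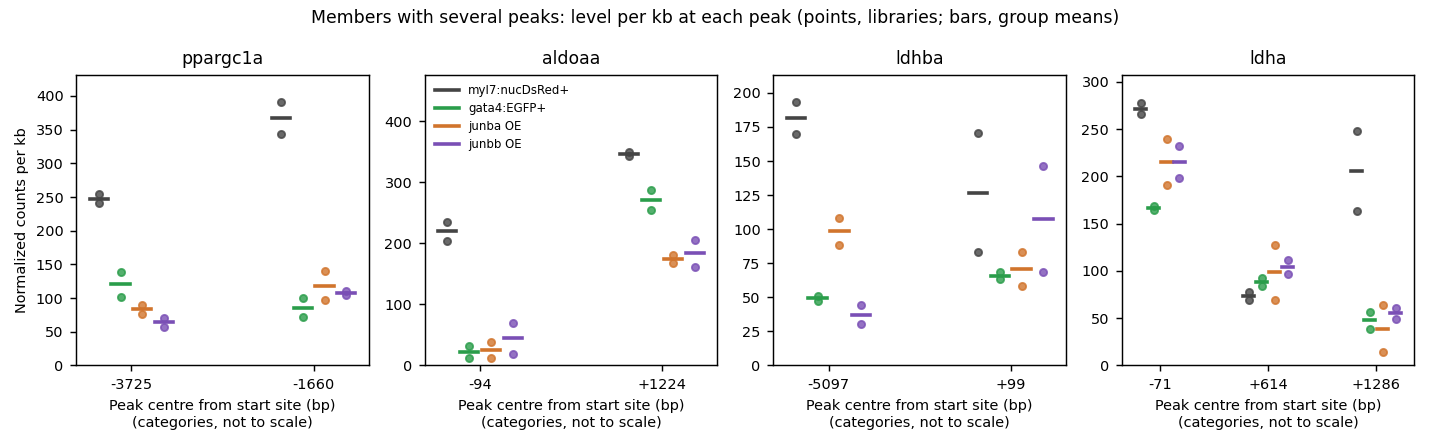
Normalized counts per kb of peak (vertical axis, from 0) at each peak of the 4 genes that have more than 1, by the signed distance of the peak centre from the start site (horizontal axis, categories), with points for libraries, bars for group means and colours for groups. Both control libraries lie above all others at every peak shown except the ldhba peak 99 bp downstream and the ldha peak 614 bp downstream.

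Set side by side, the oxidative peaks had a median log2 change of −1.03 in gata4:EGFP+ (5 lower, 0 higher of 6), −1.35 in junba OE (4 lower, 1 higher) and −1.53 in junbb OE (4 lower, 1 higher). The glycolytic peaks had −0.68 (4 lower, 1 higher of 9), −0.79 (4 lower, 1 higher) and −0.90 (5 lower, 1 higher). Medians over all tested peaks were −0.06, −0.07 and −0.02. Lower calls thus reached 4 or 5 of 6 oxidative and 4 or 5 of 9 glycolytic peaks, and the difference between the classes was not tested. The oxidative counts and medians include ckma, whose enzyme buffers ATP and which was called lower in each comparison. The glycolytic ones include the heart-type gene ldhba, whose peak at 5097 bp was called lower in gata4:EGFP+ and junbb OE. Peaks of the same gene were counted separately. Without the aldoaa peak at 94 bp, the glycolytic peaks had 3, 3 and 4 lower of 8, with medians of −0.66, −0.70 and −0.60. These 8 still hold hk2, which passed the filter only through the groups where it is high. Of the 10 calls in gata4:EGFP+, 3 remained without gata4:EGFP+ replicate 1, 3 without gata4:EGFP+ replicate 2, 7 without myl7:nucDsRed+ replicate 1 and 4 without myl7:nucDsRed+ replicate 2, whereas junba OE kept 7 to 10 calls and junbb OE 8 to 10.

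The junba OE and junbb OE libraries were not told apart at these genes. Of the 15 peaks, 0 were called between them in limma (0.088% of all tested peaks were), and 1 had an unadjusted p under 0.05. That peak was ldhba 5097 bp upstream, which was higher in both junba OE libraries than in both of junbb OE by 1.09 ± 0.37 (adjusted p = 0.316). The intervals stayed wide, so that for ckma the 95% interval of the difference ran from −0.37 to 0.93 and for hk2 from −1.27 to 0.44. Between gata4:EGFP+ and junba OE 3 of 15 peaks were called (33% of all tested), namely ckma, aldoaa at 1224 bp and ogdha, and between gata4:EGFP+ and junbb OE 2 (35% of all tested), namely ckma and hk2. Both counts depend on single libraries. Against junba OE, ckma alone stayed called without gata4:EGFP+ replicate 1, and none of the 3 did without gata4:EGFP+ replicate 2 or junba OE replicate 2. In that last case hadhaa became called (0.0213). Against junbb OE, ckma stayed called without gata4:EGFP+ replicate 1 or either junbb OE library, and neither peak did without gata4:EGFP+ replicate 2.

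By likeness over the 8 libraries, the peaks with a mean of at least 30 that ran most like ppargc1a at 1660 bp were beside pmp22b (Pearson r = 0.991), csnk1da (0.976) and nme2b.1 (0.97), among 4596 candidates. Most like hk2 were peaks beside znf703 (0.989), capn1b (0.981) and dock10 (0.979), among 4598. Of the other energy genes, hk2 ran with hadhaa (0.812) and opposite to esrrga (−0.94), ppargc1a at 3725 bp (−0.929) and ckma (−0.892). These are descriptions over 8 libraries in 4 groups, and all points share library depth and scaling.

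Other genes of the same pathways were counted from lists that hold none of the 10 genes. In gata4:EGFP+ the oxidative lists (regulators, citric acid cycle, fatty acid oxidation, energy transfer) had 8 lower and 0 higher of 56 tested peaks at 53 genes, with a median log2 change of −0.28. Lists of glycolysis and of lactate transport and hypoxia factors had 5 lower and 1 higher of 46 at 37 genes, with a median of −0.38. Lower calls were 14.3% and 10.9% of these peaks against 6.61% of all tested peaks, and higher calls 0 and 2.17% against 12.3%. Most of these peaks lie within 500 bp of a start site, where 7.78% of tested peaks were lower and 2.57% higher. The list shares also count peaks farther from a start, so they are not like for like with these near-start shares. Without gata4:EGFP+ replicate 1, gata4:EGFP+ replicate 2, myl7:nucDsRed+ replicate 1 or replicate 2 in turn, the oxidative count was 0, 0, 2 and 1 and the glycolytic lower count 1, 0, 1 and 0. Scaling to equal totals left 1 and 2 lower calls, and centring on peaks near start sites 1 and 3.

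Energy transfer had the largest share of lower peaks in gata4:EGFP+, 3 of 8: ckmt2b (−1.38 ± 0.43, adjusted p = 0.0284), a mitochondrial creatine kinase, vdac1 (−0.90 ± 0.28, 0.0301), a channel of the outer mitochondrial membrane, and the adenylate kinase gene ak1 (−0.82 ± 0.28, 0.0477). Fatty acid oxidation had 2 of 13, at slc25a20 (−1.20), the carnitine-acylcarnitine carrier, and cpt1ab (−0.98), a carnitine palmitoyltransferase. The citric acid cycle list had 2 of 23, at mdh2 (−1.05), the mitochondrial malate dehydrogenase, and the pyruvate carboxylase gene pcxa (−0.75). Oxidative regulators had 1 of 12, at pparab (−0.94), a nuclear receptor of lipid metabolism. In glycolysis 1 of 29 was lower, at the triosephosphate isomerase gene tpi1a (−1.06), and 1 higher, at the phosphoglucomutase gene pgm2 (0.97). The list of lactate transport and hypoxia factors had 4 of 17 lower. They were at the monocarboxylate transporter gene slc16a1b (−1.69, at 2381 bp) and at egln1a (−1.41), whose enzyme marks hypoxia-inducible factors for breakdown. The others were 2 peaks of bsg (−1.23 and −1.18), a partner protein of such transporters. The slc16a1b peak at 81 bp was not called (0.1).

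In junba OE the oxidative lists had 5 lower and 4 higher peaks of 56, with a median of −0.04, and the glycolytic lists 6 lower and 7 higher of 46, with a median of −0.04. Of all tested peaks 15.9% were lower and 10.3% higher, against 8.93% lower and 7.14% higher in the oxidative lists and 13.0% lower and 15.2% higher in the glycolytic lists. By description, higher calls in the glycolytic lists alone exceeded these shares. Of tested peaks within 500 bp of a start site, where most list peaks lie, 5.52% were lower and 11.9% higher. The list shares also count peaks farther from a start, several of the lower calls among them, so they are not like for like with these. Higher peaks were at sirt3 (1.81 ± 0.37, adjusted p = 0.00148), a mitochondrial deacetylase, prkaa2 (0.74), a catalytic subunit of AMP-activated kinase, and the fatty acid oxidation genes acat1 (1.42) and etfdh (1.21). Lower ones were at acadvl (−1.78, at 1374 bp), an acyl-CoA dehydrogenase, and the malonyl-CoA decarboxylase gene mlycd (−1.15, at 3037 bp). Others were at mdh1aa (−1.55, at 2859 bp), pcxa (−0.64) and ckmt2b (−1.29). The acadvl peak at 109 bp was not called (0.15, adjusted p = 0.762). In glycolysis pgm2 (1.65), the glucose transporter gene slc2a3b (1.26), pfkla (1.07), a phosphofructokinase, and gapdhs (0.94) were higher. The pyruvate kinase gene pkma (−1.42, at 4062 bp), gapdh (−1.22), pfkfb2a (−1.02, at 415 bp) and tpi1a (−0.90) were among 5 lower. Other peaks of pkma (3702 bp, 0.33) and pfkfb2a (2673 bp, 0.48) were not called. The hypoxia factor genes epas1b (1.56), epas1a (1.46) and arnt (1.01) were higher and slc16a1b (−2.53 ± 0.48, adjusted p = 0.000871) lower, at 2381 bp. The slc16a1b peak at 81 bp (0.1) and the arnt peak at 2129 bp (−0.31) were not called.

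In the oxidative lists junbb OE had 6 lower and 3 higher peaks (10.7% and 5.36%), with a median of 0.0. The glycolytic lists had 7 lower and 4 higher (15.2% and 8.7%), with a median of −0.02. These shares were below those of all tested peaks, 16.3% lower and 12.6% higher. Of tested peaks within 500 bp of a start site, where most list peaks lie, 5.52% were lower and 11.9% higher. Again the list shares also count peaks farther from a start, several of the lower calls among them, so no excess is read from these. Higher peaks were at epas1b (2.01 ± 0.35, adjusted p = 0.000249), epas1a (1.41), slc2a3b (2.04), pgm2 (1.75), sirt3 (1.41), etfdh (1.13) and acat1, with means of 39 against 17 normalized counts. Among the lower calls were slc16a1b (−2.21, at 2381 bp), pkma (−1.79, at 4062 bp), gapdh (−1.77), pfkpb (−1.73, at 3810 bp), tpi1a (−1.29) and ckmt2b (−1.49). So were mlycd (−1.46, at 3037 bp), acadvl (−1.28, at 1374 bp) and the acetyl-CoA carboxylase gene acacb (−1.26, at 4254 bp). Further ones were slc25a20 (−1.05) and esrra (−1.02), which codes for another oestrogen-related receptor. Not called were peaks of slc16a1b at 81 bp (0.45), pkma at 3702 bp (0.2), pfkpb at 105 bp (0.17) and acadvl at 109 bp (−0.11). In the citric acid cycle list 0 of 23 were called. Peaks called lower therefore lay on both sides of the pathway split, as did those called higher. The split is by pathway and not by whether a gene promotes or restrains it. Restraining genes are among those listed, such as egln1a, whose enzyme marks hypoxia-inducible factors for breakdown. The counts therefore give no direction of metabolism.

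These overexpression counts also shift with single libraries. Leaving out myl7:nucDsRed+ replicate 1, myl7:nucDsRed+ replicate 2 or junba OE replicate 2 gave 3, 0 and 0 lower calls in the oxidative lists and 2, 1 and 1 in the glycolytic lists for junba OE, and 3, 4 and 3 higher calls in the latter. Higher oxidative calls were 2 without myl7:nucDsRed+ replicate 2 and 1 without junba OE replicate 2. For junbb OE, the oxidative lower calls were 3, 0, 2 and 1 without each control and each junbb OE library in turn, and glycolytic lower calls were 4 to 5. Oxidative higher calls numbered 1 without myl7:nucDsRed+ replicate 2 and 0 without junbb OE replicate 1, and glycolytic higher calls 2 without myl7:nucDsRed+ replicate 1.

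**Figure D4:**
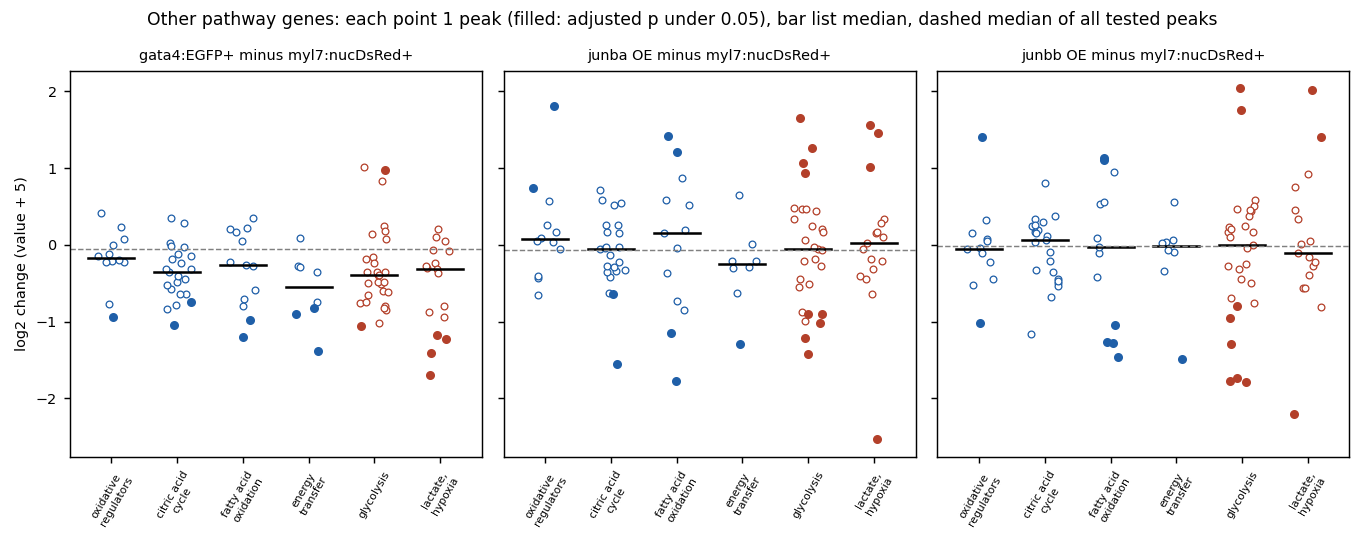
Log2 change (vertical axis, log2 of value + 5) of every tested peak of the 6 pathway lists (horizontal axis) in the 3 comparisons with myl7:nucDsRed+, with oxidative lists in blue, glycolytic ones in red, called peaks filled, a bar for the list median and a dashed line for the median of all tested peaks. In gata4:EGFP+ all 6 list medians lie below the dashed line at −0.06, and in junba OE and junbb OE called peaks lie on both sides of it.

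Between A-Fos(+) and A-Fos(-) cardiomyocytes, 0 of the 6 peaks were called in limma, and 0 had an unadjusted p under 0.05. Of all 6012 tested peaks 0% were called, and 3.33% had an unadjusted p under 0.05. Whether A-Fos blocked AP-1 in these libraries was not tested. Estimated nuclear reads were 567389, 307073 and 129391 in the A-Fos(+) libraries and 811239, 521841 and 233485 in A-Fos(-). Mitochondrial shares of the summed values were 85.2 to 94.2% in A-Fos(+) and 79.9 to 88.0% in A-Fos(-). The A-Fos table has no peak named for ppargc1a, esrrga, ckma, pgam2 or ldhba. Each of its 6 peaks lies within a peak of the shared table, and levels are not compared between the tables because each was normalized by itself.

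For the oxidative enzymes, the ogdha peak (765 bp downstream) held 65, 56 and 46 normalized counts in A-Fos(+) and 55, 45 and 54 in A-Fos(-), and the hadhaa peak (79 bp upstream) 30, 58 and 72 against 43, 47 and 51. The groups overlapped at both, and A-Fos(+) libraries spread more at hadhaa. There the A-Fos(+) values of 30 and 72 stand for about 40.4 and 25.0 estimated reads. The log2 changes at ogdha and hadhaa were 0.10 ± 0.27 and 0.09 ± 0.31. At hk2 the peak 52 bp upstream, which is 177 bp wide and lies inside the broad one of the shared table, held 22, 20 and 29 in A-Fos(+) and 22, 26 and 17 in A-Fos(-). The change of 0.11 ± 0.34 had a 95% interval from −0.59 to 0.81. The hk2 value of 29 stands for about 10.1 estimated reads.

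The aldoaa peak 1282 bp downstream held 70, 79 and 81 normalized counts in A-Fos(+) and 64, 77 and 77 in A-Fos(-). At ldha, the promoter peak 49 bp upstream held 36, 29 and 23 against 29, 31 and 31, and the peak 614 bp downstream 40, 61 and 46 against 73, 42 and 43. The ldha value of 23 stands for about 7.97 estimated reads. All 3 peaks overlapped between the groups. Their changes were 0.07 ± 0.25, −0.06 ± 0.32 and −0.07 ± 0.29, each with an adjusted p of 1. Among the other pathway genes 0 of 31 oxidative and 0 of 22 glycolytic peaks were called. Intervals of this width do not show that accessibility was the same with and without A-Fos.

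**Figure D5:**
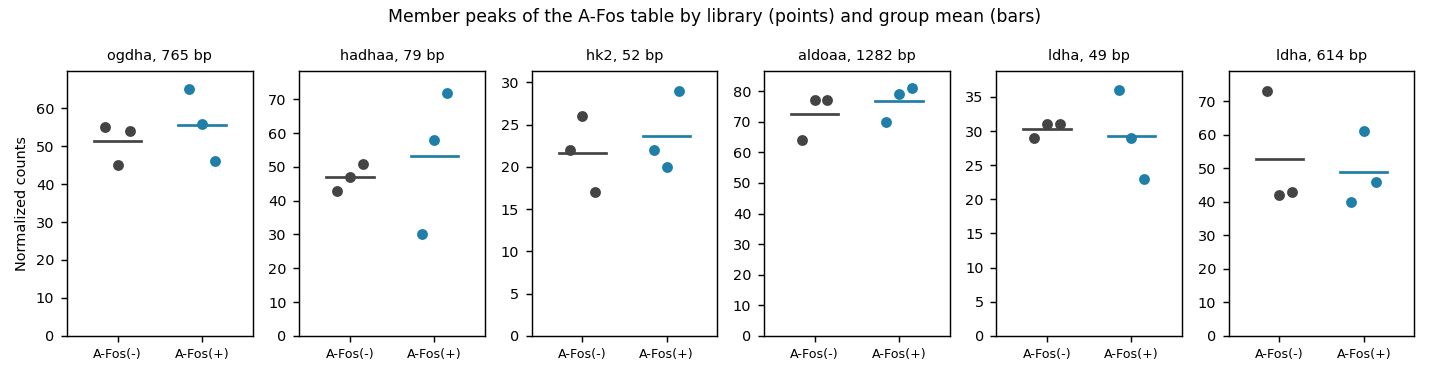
Normalized counts (vertical axis, from 0) of the 6 peaks in the A-Fos table in A-Fos(-) and A-Fos(+) cardiomyocytes (horizontal axis), with points for the 3 libraries of a group and a bar for their mean. The groups overlap at all 6 peaks, with log2 changes between −0.07 and 0.11.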

How the data were processed

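In each table the authors deposited a score per peak and library: reads in the peak after background correction, scaled by size factors within that table and made whole numbers by rounding, per the file headers and the values. Per the submitters' processing notes, the authors used STAR 2.6.1d, Trimmomatic 0.36, MACS2 and Picard 2.18.16, and further deepTools 2.5.7 with DESeq2 1.18.1. The fraction of each peak inside its gene's body is deposited too, per the file headers, but was not used; peaks were placed upstream or downstream from the deposited coordinates and strand. Read shifting, peak thresholds and the background correction are not given in the sources used here, nor whether coordinates count from 0 or 1. Whole reads could not be recovered, so no count model was fitted, and read numbers were estimated from the spacing of the values. Peaks with a mean of at least 10, without the mitochondrial one, were tested with limma 3.58.1 (R 4.3.3, trend and robust) on log2(value + 5), with all 4 groups of the shared table in 1 fit and A-Fos 3 against 3. The script was tested on simulated data. The 10 genes, the pathway and marker lists and the tests were chosen with earlier results of these data known. Every peak of the 10 genes is described; from each list up to 4 called peaks per direction with the largest change are named, 1 per gene. Alternatives were other scalings, pseudocounts, filters and fits, a replicate block, and leaving out each library; where that left 1 library in a group, it is assumed to vary like the others. Python 3.11.15, pandas 2.3.3 and Matplotlib 3.10.9 were used.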

Additional observations from a re-analysis of the deposited data

How the results depend on the processing

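Over all peaks, comparisons and alternatives, single-peak results kept their direction and side of the threshold in 1080 cases, were no longer called in 66, became called in 13 and turned direction in 57, none of these last a peak called as reported; 39 of the 57 were in direct contrasts at peaks called under no setting. Leaving the aldoaa peak at 94 bp out of the counts, an alternative chosen after seeing the data, gave 9, 9 and 10 calls in the comparisons with the control, hk2 among them each time. With only peaks of a mean of at least 30, 6 peaks were called in gata4:EGFP+ and 7 in junbb OE, because 10 of the 15 were tested. With 1 library left out, called peaks numbered 3 to 7 in gata4:EGFP+, 0 to 3 in gata4:EGFP+ against junba OE and 0 to 1 against junbb OE. The last comparison, 2 calls, gave 4 when centred on peaks near start sites, 4 under quantile normalization, 1 with log2(value + 1), 1 with a mean of at least 30 and 5 with only the 2 groups compared; the cause was not tested. Equal totals turned ldhba 99 bp in junbb OE to 0.05 and, for A-Fos, aldoaa to −0.19, hk2 to −0.12, ogdha to −0.16 and hadhaa to −0.16. With a library left out, hadhaa ranged from −0.15 to 0.79 in gata4:EGFP+, ldha 614 bp from −0.07 to 0.72 in junba OE, ldhba 99 bp from −0.64 to 0.24 in junbb OE and esrrga from −0.07 to 0.78 in gata4:EGFP+ against junba OE. For A-Fos, aldoaa ranged from −0.01 to 0.13, hk2 from −0.03 to 0.22, ogdha from −0.01 to 0.22, hadhaa from −0.14 to 0.42, ldha 49 bp from −0.20 to 0.08 and ldha 614 bp from −0.23 to 0.17. Equal totals moved the median of all peaks from −0.06 to 0.15 in gata4:EGFP+ and from −0.02 to 0.24 in junbb OE, and centring moved it to 0.14 and −0.17, and from −0.07 to −0.21 in junba OE. Among calls in gata4:EGFP+ 65.0% were higher, against 87.8% with equal totals and 84.2% centred. The replicate block gave 9 calls in gata4:EGFP+, with hk2 lost at an adjusted p of 0.0556, and changed no other call. In the shared table same-numbered libraries did not deviate together (r from −0.032 to 0.02), so the numbers were not taken as pairs there. In the A-Fos table r was 0.28, 0.256 and 0.082, and every library ran best with its own number. Shared batches or pairs are therefore possible in that table, and the labels do not settle it. The A-Fos changes and intervals reported come from the unpaired fit. Low values, such as aldoaa 94 bp outside the control and hk2 in the control, rest on few reads.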
